A study of Mus musculus with 4 samples.

Results

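Histone genes, the histone mRNA-binding protein Slbp and the histone chaperone Nasp were examined in the livers of mice that express viral oncoproteins. The members were H3c14, H1f0, H2az1 (older symbol H2afz), H2ax (older symbol H2afx), H3f3a, H3f3b, Slbp and Nasp, and every probe set whose only platform gene symbol was one of these was taken. Of the 8 genes named, 5 had such a probe set, 1 each, out of 8251 genes with a symbol of their own on the array. H1f0 had no probe set here, and H3f3a and H3f3b were listed only on probe sets shared with related genes. The members were selected on the log2 differences between these same arrays, which were known from an earlier analysis, so those differences are given as a description and not as a test.

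Total liver RNA came from male mice of the hybrid strain B6SJL, aged 50 to 66 days, fed a diet of 65% protein and 10% carbohydrate without restriction for 4 weeks from weaning. The 2 PEPCK-TAg arrays held RNA of transgenic mice that carry the SV40 T antigens (large T and small t), and the 2 wild-type arrays RNA of mice without the transgene on the same diet. The name PEPCK refers to the promoter of the phosphoenolpyruvate carboxykinase gene, which is active in hepatocytes, and a diet rich in protein and poor in carbohydrate raises its activity. The transgene's own level was not analysed here. The series calls the arrays duplicate measurements, and no source used here ties the arrays of a group to separate animals, so SEs and p-values cover no more than the spread of these arrays, part or all of which may be technical.

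Each nucleosome wraps DNA around the core histones H2A, H2B, H3 and H4, and linker histones of the H1 family bind where the DNA enters and leaves it. Replication-dependent histone genes such as H3c14 lie in clusters and are transcribed in S phase, and most of their mRNA ends in a stem-loop, bound by Slbp, in place of a poly(A) tail. Replacement variants such as those encoded by H2az1, H3f3a and H3f3b are made through the whole cycle from polyadenylated mRNA, and H2ax makes mRNA of both kinds. Standard Affymetrix labelling primes on the poly(A) tail, so an array of this type reads mainly the polyadenylated part of a histone mRNA.

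Signals were those deposited by the authors, in arbitrary units, and log2 differences are PEPCK-TAg minus wild-type with limma's moderated SE (n = 2 arrays per group throughout). Probe sets entered the test when 2 or more of the 4 arrays exceeded a signal of 41.3, and signals under 10.6 were raised to that floor. Median signals were 66.6 to 68.5 in wild-type and 77.0 to 84.7 in PEPCK-TAg liver. The actin 3' to 5' ratio, a sign of RNA integrity, ranged from 3.41 to 4.33 in wild-type and from 3.14 to 3.82 in PEPCK-TAg liver. That of Gapdh ranged from 3.80 to 5.35 in wild-type and from 2.90 to 4.57 in PEPCK-TAg liver. All 13 hepatocyte markers measured exceeded this filter level in wild-type liver, and their summed signal was 94184 to 95459 in wild-type liver against 55088 to 69122 in PEPCK-TAg liver. Of these 13, 2 were called lower and 0 higher at a limma adjusted p under 0.05, and 3 had a positive log2 difference. Over all probe sets tested 3.40% were called lower and 9.10% higher, and markers that rose, below, are those called higher. The summed signal of 9 granulocyte markers was 347.2 to 394.3 in wild-type liver against 7388 to 11364 in PEPCK-TAg liver, and 8 of the 9 rose, 2 of the 9 exceeding the filter level on both arrays of wild-type liver. That of 9 erythroid markers was 3856 to 4275 and 8329 to 12801, and 6 rose, 6 of the 9 exceeding that level in wild-type liver. Of 11 macrophage markers 2 of 10 tested rose (sums of 3115 to 3987 and of 6749 to 7061, Marco at the floor on every array), and of 9 lymphocyte markers 1 of 4 tested rose (sums of 392.7 to 410.4 and of 304.8 to 324.3, Cd3g and Cd8a at the floor on every array). The part that other cell types play in the values below was not tested, and in whole liver fewer cells of a type and less RNA per cell cannot be told apart.

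In PEPCK-TAg liver the probe set of the replication-dependent gene H3c14 was lower, and those of H2az1, H2ax, Slbp and Nasp were higher. All 5 were among the 985 of 7877 probe sets tested that passed a Benjamini-Hochberg adjusted p of 0.05 in limma (12.5%). The 4 higher members stand beside 717 probe sets called higher (9.10% of those tested) and H3c14 beside 268 called lower (3.40%). Because the members were chosen with this comparison known, nothing is read from these counts. The groups did not overlap in any of the 5, as in 59.8% of all probe sets tested. On each group of 2 arrays an exact permutation test cannot give a p under 0.333. No member was called when either PEPCK-TAg array was left out, when the fluidics station was a block, or when dim probe sets were kept, although every difference kept its sign.

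H3c14 encodes a core histone H3 of the replication-dependent kind. It read 1152 and 2405.4 in wild-type liver against 176.0 and 95.4 in PEPCK-TAg liver. Both wild-type arrays lay above both PEPCK-TAg arrays, and the lowest wild-type signal was 6.54 times the highest PEPCK-TAg signal. The mean difference was -3.68 ± 0.44 (SE) on the log2 scale, or 12.8-fold lower. The arrays of a group also differed from each other, by 1.06 on the log2 scale in wild-type liver and by -0.88 in PEPCK-TAg liver (array 2 minus array 1). Leaving out wild-type 1 gave -4.21 and leaving out wild-type 2 gave -3.15, while leaving out PEPCK-TAg 1 gave -4.13 and leaving out PEPCK-TAg 2 gave -3.24. In wild-type 1 and PEPCK-TAg 1, scanned on 1 day, it was -2.71, a fold smaller by more than 1.5 times.

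H2az1 encodes H2A.Z, a replacement variant of H2A found at promoters and enhancers. Its signal came to 572.5 and 421.9 in wild-type liver against 2495.3 and 2119.1 in PEPCK-TAg liver, a log2 difference of 2.23 ± 0.26 (SE), or 4.68-fold. The replicates of each group lay close together compared with the gap between groups. H2ax encodes H2A.X, the variant whose phosphorylation marks DNA double-strand breaks. Its signal was 294.5 and 192.2 in wild-type liver against 1176 and 927.2 in PEPCK-TAg liver, a log2 difference of 2.13 ± 0.30 (SE), or 4.39-fold. In both genes the array numbered 1 was the higher of its group. The 2 log2 differences, 2.23 and 2.13, lay within 1 SE of each other.

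Slbp binds the stem-loop of replication-dependent histone mRNA and directs its processing and translation. Its signal was 91.3 and 77.4 in wild-type liver against 499.3 and 395.3 in PEPCK-TAg liver, a log2 difference of 2.40 ± 0.28 (SE), or 5.28-fold. Nasp is a chaperone that holds newly made H3 and H4 and also binds linker histone. Its signal was 40.7 and 26.9 in wild-type liver against 218.1 and 131.0 in PEPCK-TAg liver, a log2 difference of 2.35 ± 0.41 (SE), or 5.11-fold. Both Nasp signals of wild-type liver were under the filter level, so this probe set was tested only through the group in which it was high. The other 4 members exceeded that level on all 4 arrays. Across the alternative settings tried, the log2 difference ranged from 2.01 to 2.45 for H2az1, 1.83 to 2.44 for H2ax, 2.20 to 2.57 for Slbp and 1.98 to 2.72 for Nasp.

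**Figure D1:**
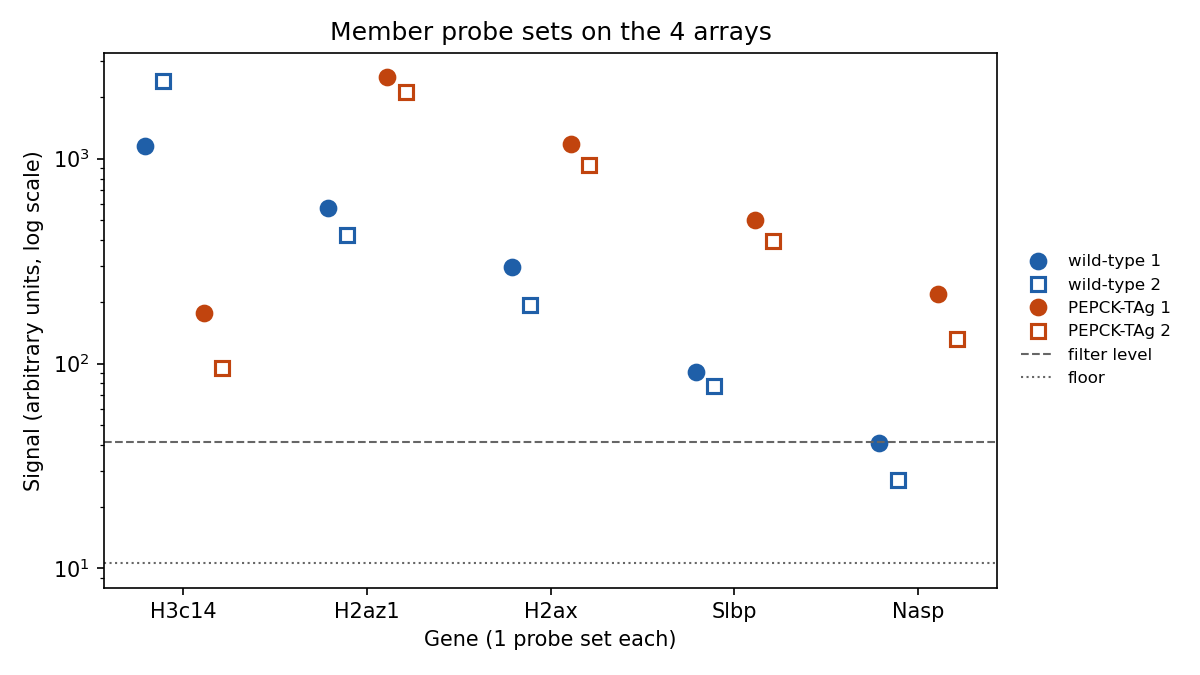
Signal of the 5 member probe sets on each array, on a log scale in arbitrary units, with wild-type arrays in blue and PEPCK-TAg arrays in orange (array 1 filled circles, array 2 open squares) and the filter level and floor as lines. H3c14 falls from 1152 and 2405.4 to 176.0 and 95.4, the other 4 genes are higher on both PEPCK-TAg arrays, and both wild-type signals of Nasp lie under the filter level of 41.3.

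H3c14 was then set against H2az1 and H2ax, the replacement variants among the members that had a probe set of their own. Each was taken as the change on each array from the wild-type mean. H3c14 minus the mean of these variants was -0.80 and 0.80 in wild-type liver against -5.57 and -6.16 in PEPCK-TAg liver. The wild-type arrays spread around 0 by construction, and their gap reflects that H3c14 was higher and the variants lower on wild-type 2. The log2 difference of H3c14 minus the median of the variants' was -5.86, with a pooled SD between replicates of 0.85. It ranged from -6.66 to -5.07 over the fits that leave out 1 array each, the ends being those without wild-type 1 and without wild-type 2. In the pair scanned on 1 day it was -4.77. These values show unequal change of the probe sets, and do not set the level of one gene against another. Variants left out had smaller log2 differences than H2az1 and H2ax. They were 1.08 for H2az2, 0.32 and 1.13 for Macroh2a1, and 1.44 and 0.97 for the shared probe sets of H3f3a and H3f3b.

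The promoters of the members were read from RefSeq (GRCm38.p6) to show the sequence next to the genes that changed in opposite directions. Windows of 250 bases before the gene start were found for 7 of the 8 members, H2ax having none in the table. They were searched on both strands for CCAAT, the letters of the CCAAT box that NF-Y binds, for TTTNNCGC, an E2F-like pattern, and for TATAAA, and in the windows of the members no match overlapped another. CCAAT was found in 5 of the 7 members (H2az1, H3f3a, H3f3b, Slbp and Nasp) and in 33.8% of 32851 windows of all genes. H3c14 and H1f0 held none of the 3 patterns. TTTNNCGC was in no member and in 4.28% of all windows, and TATAAA was in H3f3b alone and in 12.4% of all windows. Slbp held CCAAT 3 times, from 108, 97 and 67 bases before its start, and H2az1 from 80 and 23 bases. Nasp held it from 189 and 99 bases, and H2ac18, the gene that lies next to H3c14, from 55 and 26 bases. A match describes letters in a window and not a bound site. In the sequences below, given along each gene's strand, capitals mark CCAAT or its complement ATTGG. The windows are chr3:96246435-96246684 (+) for H3c14, chr3:96245247-96245496 (+) for H2ac18, chr3:137864237-137864486 (+) for H2az1, chr5:33652575-33652824 (-) for Slbp and chr4:116627952-116628201 (-) for Nasp.
H3c14: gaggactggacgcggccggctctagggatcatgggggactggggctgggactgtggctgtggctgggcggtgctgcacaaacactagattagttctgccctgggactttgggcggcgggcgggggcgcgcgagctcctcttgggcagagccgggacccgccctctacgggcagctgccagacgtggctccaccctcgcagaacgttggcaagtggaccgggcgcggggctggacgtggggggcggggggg
H2ac18: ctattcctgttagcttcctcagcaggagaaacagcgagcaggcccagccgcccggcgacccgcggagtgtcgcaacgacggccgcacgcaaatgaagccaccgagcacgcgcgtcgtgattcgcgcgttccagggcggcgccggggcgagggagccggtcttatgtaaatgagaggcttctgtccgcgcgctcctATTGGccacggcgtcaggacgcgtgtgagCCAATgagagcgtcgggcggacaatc
H2az1: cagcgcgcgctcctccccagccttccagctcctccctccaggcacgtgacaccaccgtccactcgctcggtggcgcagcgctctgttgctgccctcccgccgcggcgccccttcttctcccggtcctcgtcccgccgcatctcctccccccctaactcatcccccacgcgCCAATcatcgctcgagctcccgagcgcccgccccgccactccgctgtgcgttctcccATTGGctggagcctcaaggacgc
Slbp: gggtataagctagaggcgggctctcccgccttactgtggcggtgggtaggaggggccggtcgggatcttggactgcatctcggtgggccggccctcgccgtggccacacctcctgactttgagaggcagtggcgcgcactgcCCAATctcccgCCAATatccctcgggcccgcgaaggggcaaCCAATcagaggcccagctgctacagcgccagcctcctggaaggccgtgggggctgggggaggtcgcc
Nasp: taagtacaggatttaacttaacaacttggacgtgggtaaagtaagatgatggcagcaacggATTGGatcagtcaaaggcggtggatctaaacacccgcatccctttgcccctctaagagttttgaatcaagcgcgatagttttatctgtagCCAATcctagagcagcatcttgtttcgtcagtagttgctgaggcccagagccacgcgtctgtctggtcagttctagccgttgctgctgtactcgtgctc
The windows of H3c14 and H2az1 each held 71.2% G and C, against 68.4% for Slbp, 65.6% for H2ac18 and 48.4% for Nasp.

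H3c14 belongs to a family of nearly identical genes, and its probe set is not the only one that lists it. Affymetrix gave this probe set the suffix r, used where the usual rules of probe choice could not all be met. The platform draws it from the same sequence record as a probe set that lists H2ac18, H2ac19 and a histone pseudogene, and H2ac18 and H2ac19 are the next genes to H3c14 on 1 side in the RefSeq gene order. The signal of this neighbouring H2A probe set was 977.3 and 1106.3 in wild-type liver against 168.7 and 170.0 in PEPCK-TAg liver. It fell by 2.62 ± 0.24 (SE) on the log2 scale, or 6.14-fold (limma adjusted p = 0.00166), with little spread within either group. Without PEPCK-TAg 1 its adjusted p was 0.0998 and without PEPCK-TAg 2 0.109, with differences of -2.61 and -2.62. In the pair of 1 scan day its difference was -2.53, close to the -2.71 of H3c14 on those arrays.

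A further 4 probe sets list H3c14 together with other H3 genes, 2 of them listing 12 H3 genes and 2 listing 8. Of those listing 12, the first read 70.6 and 69.1 in wild-type liver against 47.6 and 60 in PEPCK-TAg liver, a log2 difference of -0.39 ± 0.34 (SE). The other read 120.7 and 133.6 against 114.7 and 115.9, a log2 difference of -0.14 ± 0.28 (SE). Neither passed the threshold (limma adjusted p = 0.489 and 0.770). In each, both wild-type arrays lay above both PEPCK-TAg arrays, but the groups did not overlap in 59.8% of all probe sets tested. Of those listing 8, the first read 20.4 and 27.9 against 6.7 and 8.0, and the second 3.7 and 14.7 against 2.3 and 2.1. Both stayed under the filter level on all 4 arrays and were not tested, and their PEPCK-TAg signals lay under the floor, so the size of their difference cannot be given. How far the signal of the H3c14 probe set comes from H3c14 itself was not tested.

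**Figure D2:**
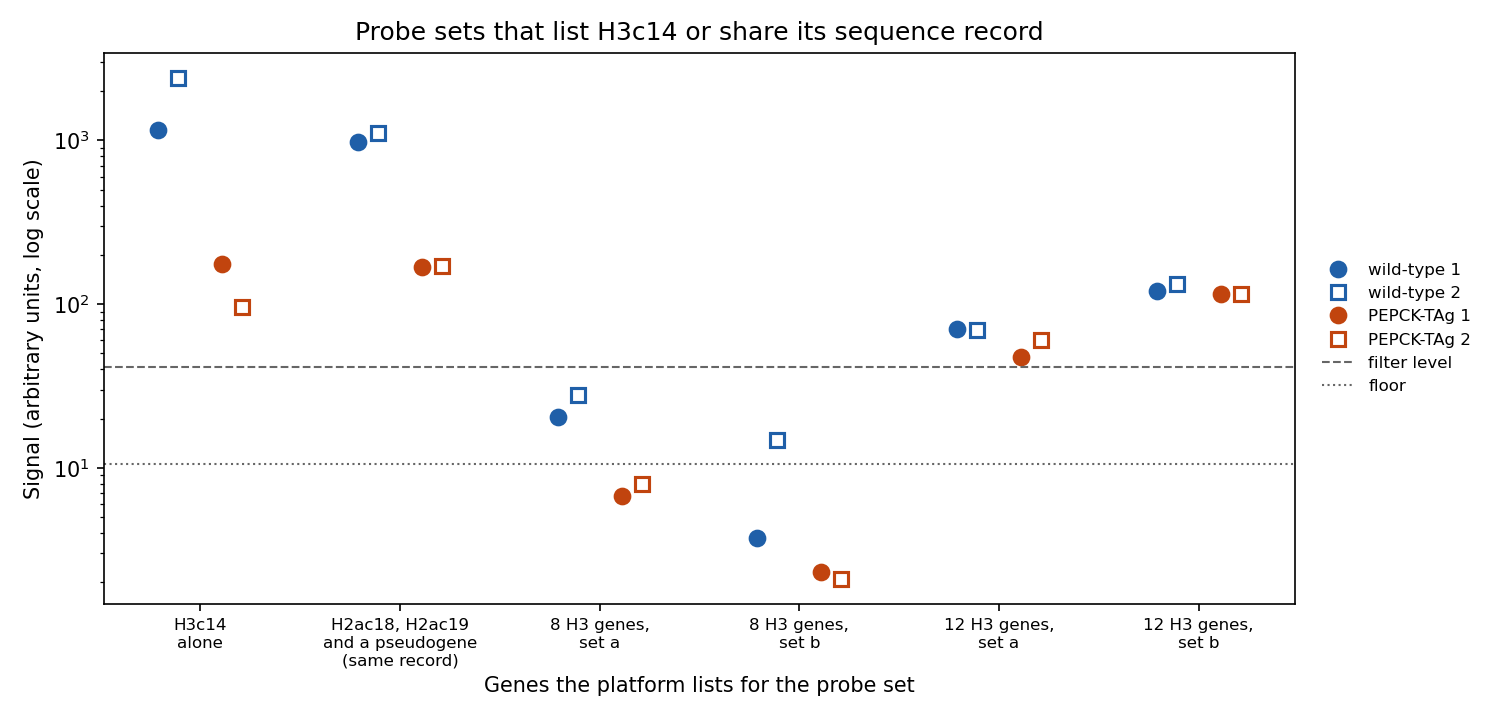
Signal on each array, on a log scale in arbitrary units, of the H3c14 probe set, the H2ac18 and H2ac19 probe set drawn from the same sequence record, and the 4 probe sets that list H3c14 among 8 or 12 H3 genes. The first pair drops from 977.3 or more in wild-type to 176.0 or less in PEPCK-TAg liver, while the sets of 12 genes stay between 47.6 and 133.6 and the sets of 8 genes lie under the filter level of 41.3.

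H3f3a and H3f3b both encode the replacement variant H3.3, which is placed into chromatin outside replication. They were listed on 2 probe sets, each shared with H3f3c and predicted relatives, so the values belong to the group and to neither gene alone. The first read 620.8 and 762.0 in wild-type liver against 1936.9 and 1796.2 in PEPCK-TAg liver, a log2 difference of 1.44 ± 0.23 (SE), or 2.71-fold. The second was brighter, at 2543.6 and 2145.9 against 4508.2 and 4656.0, with a log2 difference of 0.97 ± 0.22 (SE), or 1.96-fold. The groups did not overlap in either, as in 59.8% of all probe sets tested, and the higher signals were those of PEPCK-TAg liver. Both passed the threshold in the main fit (limma adjusted p = 0.0114 for the first and 0.0352 for the second). Of all probe sets tested 9.10% were called higher. Neither was called when dim probe sets were kept (adjusted p = 0.0791 and 0.115). The second was also not called with eBayes without a trend (adjusted p = 0.0721), without wild-type 2, or with the scanner type as a block. When either PEPCK-TAg array was left out, or the fluidics station was a block, neither was called. Their differences were 1.29 and 1.09 without wild-type 1, and 1.59 and 0.85 without wild-type 2.

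Other histone genes with a symbol of their own numbered 19, with 24 probe sets, and most were dim. The 16 probe sets not tested had no signal above 55.3 on any array, and of the 6 genes tested 1 rose and none fell, with a median log2 difference of -0.012 (0.051 over all probe sets tested, of which 9.10% rose and 3.40% fell). The gene that rose was Cenpa, the H3 variant of centromeres, at 76.0 and 96.5 in wild-type liver against 297.4 and 240.1 in PEPCK-TAg liver (log2 difference 1.64 ± 0.29 SE, limma adjusted p = 0.0163). H2az2, the second gene for H2A.Z, read 1060.2 and 549.8 against 1507.8 and 1717.5, a log2 difference of 1.08 ± 0.34 (SE, adjusted p = 0.0911). That value is below the 2.23 of H2az1, but the difference between these genes was not tested. Macroh2a1, which encodes a large variant of H2A, gave 0.32 ± 0.24 (SE) on its brighter probe set and 1.13 ± 0.38 (SE) on the other, and neither passed. H1f2, a linker histone of the replication-dependent kind, read 436.0 and 1085.6 against 487.3 and 568.0, so that its groups overlapped (-0.39 ± 0.43 SE). H2bc22 gave -0.96 ± 0.39 (SE) on its brighter probe set and -0.40 ± 0.59 (SE) on a dimmer one whose groups overlapped. H2bc1 gave -0.34 ± 0.41 (SE), and neither of these H2B genes passed. Without wild-type 1 the log2 difference of H1f2 was -1.05. When either PEPCK-TAg array was left out none of these 6 genes was called, nor was any other probe set.

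Some probe sets were shared by several core histone genes. Of 6 whose symbols were all histone genes, 4 were tested and 1 passed, the H2ac18 and H2ac19 set. Of all probe sets tested 12.5% passed, and 3.40% were called lower. The set of H2bc4, H2bc6 and H2bc8 read 1974.8 and 1587 in wild-type liver against 1120.9 and 1171.1 in PEPCK-TAg liver (log2 difference -0.63 ± 0.23 SE, limma adjusted p = 0.126). A set that lists 13 H2A genes of other clusters and Trim17 is given here after its values were seen. It read 640.3 and 663.2 in wild-type liver against 3102.2 and 1713.3 in PEPCK-TAg liver (log2 difference 1.82 ± 0.32 SE, adjusted p = 0.0154, or 0.172 without PEPCK-TAg 1 and 0.112 without PEPCK-TAg 2). Since it also lists Trim17, its signal cannot be given to the H2A genes alone.

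**Figure D3:**
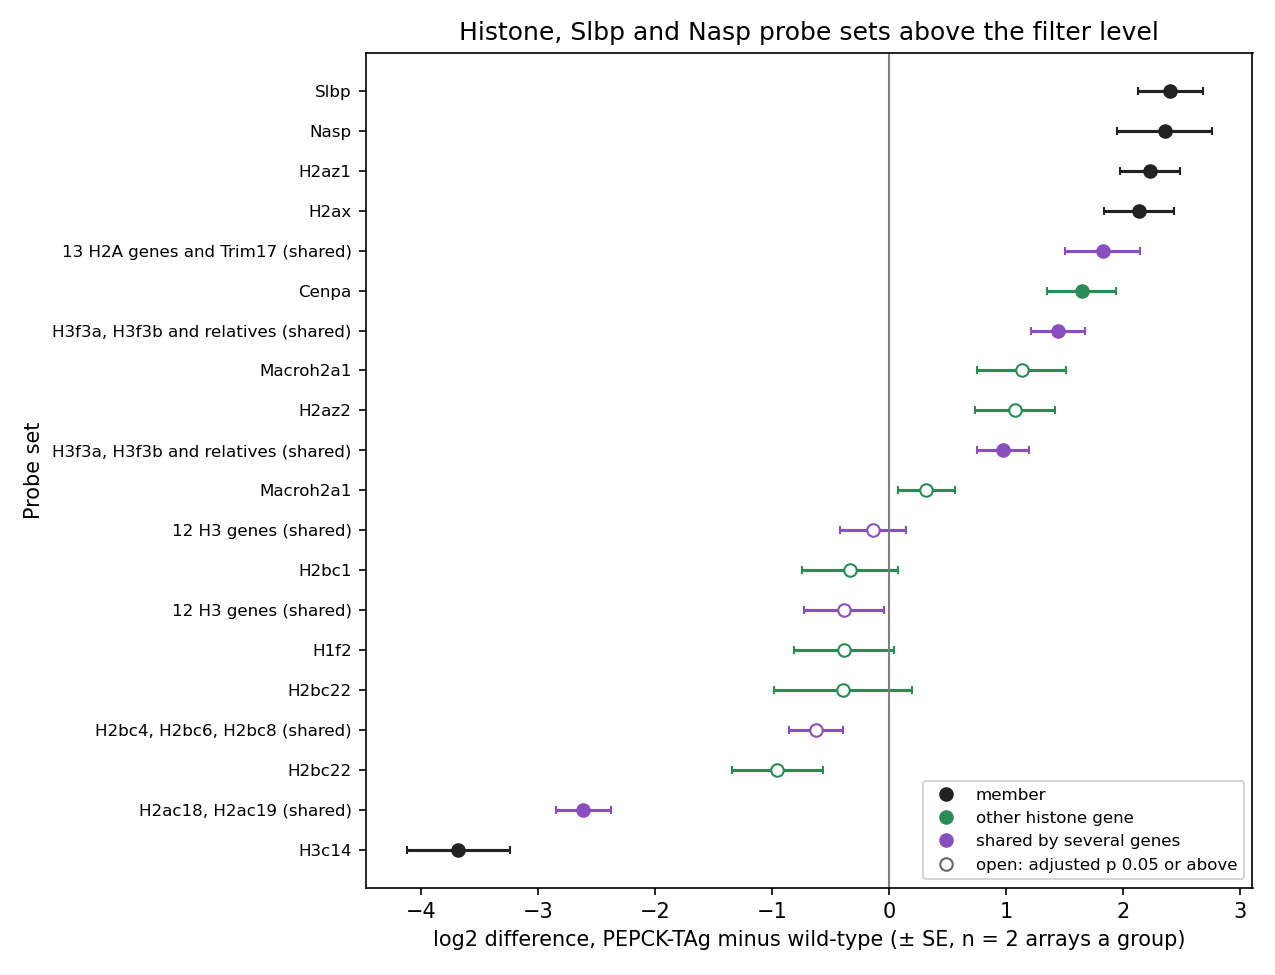
Log2 difference between PEPCK-TAg and wild-type liver, with limma's SE (n = 2 arrays per group), of every histone, Slbp and Nasp probe set tested, coloured by whether it is a member, another histone gene or shared by several genes. Filled points passed an adjusted p of 0.05. Slbp, Nasp, H2az1 and H2ax lie at the top between 2.13 and 2.40, and H3c14 (-3.68) and the H2ac18 and H2ac19 set (-2.62) stand apart at the bottom.

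Chaperones and deposition factors carry histones beside Nasp and place them into chromatin. Of 25 on the array 24 were tested, and 10 rose and none fell, with a median log2 difference of 0.75 (0.051 over all probe sets tested, of which 9.10% rose and 3.40% fell). Asf1b, a chaperone of new H3 and H4 in dividing cells, rose from 5.1 and 21.3 to 293.3 and 253.4, at least 18.1-fold since 1 wild-type array was at the floor (limma adjusted p = 0.00258). Like Nasp, it was tested only through the group in which it was high. Mcm2, a helicase subunit that also binds H3 and H4, rose 11.1-fold (adjusted p = 0.00106). Chaf1a, of the CAF-1 complex that loads histones at the replication fork, rose 8.90-fold, from 17.0 and 16.7 to 199.6 and 112.8 (adjusted p = 0.00599), and it too exceeded the filter level in PEPCK-TAg liver alone. Hat1, which acetylates new H4, rose 5.04-fold on the brighter of its probe sets (adjusted p = 0.00504). The factors of H3.3 did not pass: Hira gave 0.61 ± 0.30 (SE) and Daxx -0.61 ± 0.31 (SE), and Atrx was under the filter level. Vps72, of a complex that exchanges H2A.Z into chromatin, gave -1.01 ± 0.32 (SE, adjusted p = 0.0878) beside the higher signal of H2az1. Its difference was -1.26 when wild-type 1 was left out. With the replicate number as a block it was called lower (limma adjusted p = 0.0132), and 12 of the 24 genes rose. In that fit 1240 of all 7877 probe sets tested were called higher and 633 lower. Among the 10, Nap1l1 and Anp32a each had a dimmer probe set that did not pass, and 22 of the 24 genes exceeded 41.3 on each wild-type array. The count of 10 rises became 0 when either PEPCK-TAg array was left out and 1 without the filter.

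Of 15 factors of histone gene transcription, mRNA processing and turnover on the array, 14 were tested, 2 rose and none fell (9.10% and 3.40% of all probe sets tested), with a median log2 difference of 0.62. Casp8ap2, a processing factor of histone mRNA, rose 5.14-fold, from 104.0 and 92.1 to 561.9 and 450.1 (limma adjusted p = 0.00345). Cdk2, the kinase that with cyclin E drives entry into S phase, rose 3.09-fold (adjusted p = 0.0212). E2f1, an activator of S phase genes, gave 1.17 ± 0.32 (SE, adjusted p = 0.0631) on its brighter probe set and 3.07 on a dimmer one that passed. Subunits of NF-Y, which binds CCAAT, did not pass, with log2 differences of 0.17 ± 0.37 (SE) for Nfya, 0.71 ± 0.44 (SE) for Nfyb and 0.25 ± 0.26 (SE) for the brighter probe set of Nfyc, whose dimmer one gave 1.73 and did not pass either. The polyadenylation and cleavage subunits Cpsf2 and Cpsf3 gave -0.20 ± 0.36 (SE) and 0.31 ± 0.26 (SE). The 2 rises became 0 without either PEPCK-TAg array and 4 with a filter at the 60th percentile, where 13 factors were tested. As a reference for S phase, 13 DNA replication genes were on the array, of which Mcm6 was under the filter level and not tested. All 12 tested rose (9.10% of all probe sets tested did), by 1.78 to 5.30 on the log2 scale with a median of 3.13. Of the 12, 7 exceeded 41.3 on each wild-type array. The genes with the largest rises, Rrm2 (5.30) and Prim1 (at least 4.95), were tested only through the group in which they were high. For Prim1, 1 wild-type array was at the floor. A dimmer probe set of Tk1, the gene with the smallest of these rises, gave -0.90 and did not pass.

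**Figure D4:**
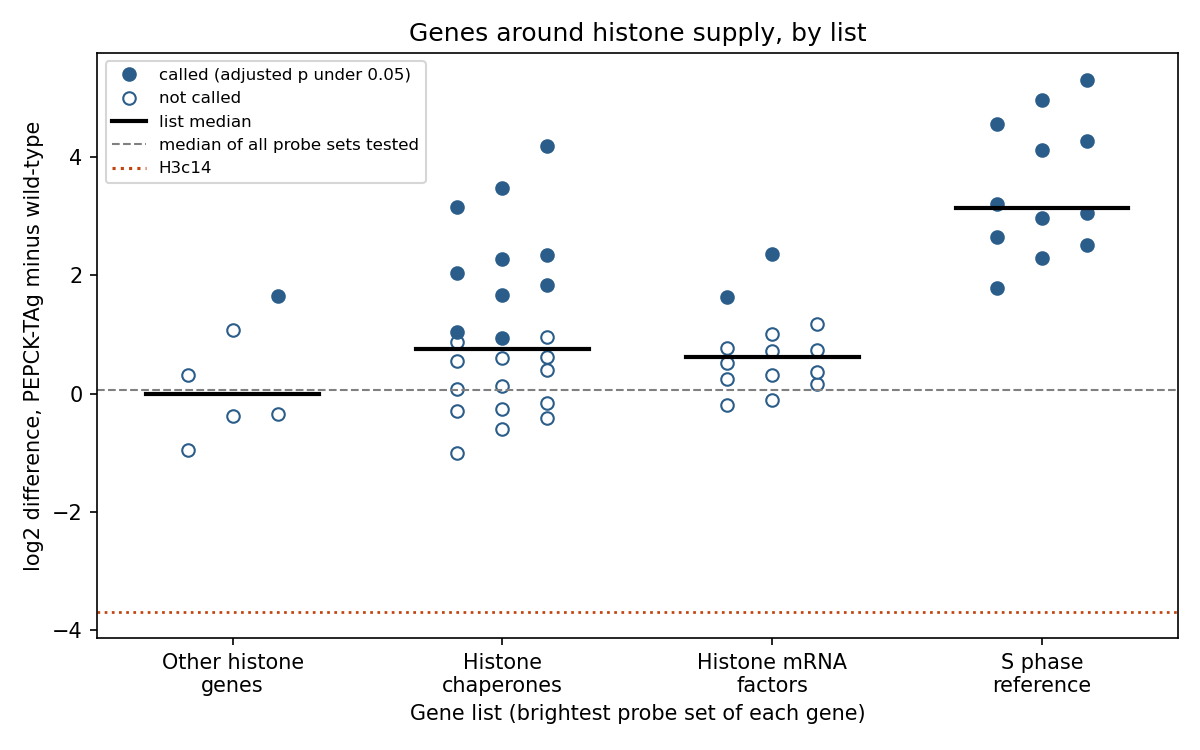
Log2 difference between PEPCK-TAg and wild-type liver of each gene tested (brightest probe set) in 4 lists, with filled points for an adjusted p under 0.05, bars for list medians and lines for the median of all probe sets tested (0.051) and for H3c14 (-3.68). The S phase genes are all filled, from 1.78 upwards, 10 of 24 chaperones and 2 of 14 mRNA factors are filled, and no gene of the lists lies near H3c14.

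The genes whose profile over the 4 arrays was most like that of H3c14 were sought among 6991 other probe sets with 1 gene symbol, as the root mean square distance of log2 signals, each taken from its wild-type mean. The nearest was Cyp4a12b, a cytochrome P450 of male liver, at a distance of 0.34, with signals of 2792.6 and 3027.7 in wild-type liver against 303.4 and 175.7 in PEPCK-TAg liver. It was followed by the serum amyloid gene Saa4 (0.52), a probe set of the kinase gene Zap70 (0.52), the ornithine aminotransferase gene Oat (0.53) and the phosphatase gene Lhpp (0.63). None of these 5 is a histone gene. Saa4 and Lhpp exceeded the filter level in wild-type liver alone. Lhpp lay under the floor on both PEPCK-TAg arrays (7.9 and 8.2), so its distance depends on the floor. The shared H2ac18 and H2ac19 set (-2.62) could not enter, and the lowest log2 difference of the other histone genes tested was -0.96 (H2bc22). With 4 arrays in 2 groups the order of nearest profiles rests mostly on the size of the difference between groups.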

How the data were processed

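Total liver RNA was measured on 4 MG_U74Av2 arrays, 2 per group, grouped by the labels' titles. Each probe set has 1 intensity per array, which the authors made with MAS5 (version not given) per the submitters' processing notes and scaled to a common trimmed mean (2% trimmed mean 250.2). Of 12488 probe sets, 66 controls were left out. Arrays were rescaled linearly by less than 0.2%, floored at the 20th percentile (10.6) and taken to log2. Probe sets were tested if 2 arrays exceeded the 40th percentile (41.3), which left 7877. The test was that of limma 3.58.1 (R 4.3.3) (eBayes with trend, two-sided, no block, Benjamini-Hochberg over all tested), and the code was tested on simulated data. The design text states no covariates. Probe sets were named from the platform table (10833 with 1 symbol, 396 with several, 1193 with none), and 10817 matched RefSeq. Lists use a gene's brightest probe set. Named were all members, up to 4 called genes per list and direction with the largest differences, histone genes tested, and the 5 nearest profiles to H3c14. Further genes of the lists were named after their values were seen. Members and lists were chosen with earlier results of these data known. Saturation and background can shrink folds, and 2 arrays per group limit precision.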

Additional observations from a re-analysis of the deposited data

How the results depend on the processing

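Without PEPCK-TAg 1 or 2, or with the fluidics station as a block (PEPCK-TAg 2 alone had its own station, so this leaves it out), 0 of 7877 probe sets passed limma's adjusted p of 0.05, where 1348, 1433 and 1432 passed an unadjusted p of 0.05. The counts of other histone genes, chaperones and mRNA factors called were then also 0. With an array left out, the count of all calls ranged from 0 to 1449, of other histone genes from 0 to 3, of chaperones from 0 to 10 and of mRNA factors from 0 to 3, and the lone array was assumed to vary like the others. With no filter 165 probe sets, 0 other histone genes, 1 chaperone and 1 mRNA factor were called, and with a filter at the 60th percentile 4 mRNA factors. The array numbers were shared between groups, and deviations of same-numbered arrays correlated at 0.25 over probe sets, but nothing in the labels pairs them. With the replicate number as a block, 1873 probe sets, 2 other histone genes, 13 chaperones (12 higher and Vps72 lower) and 5 mRNA factors were called. In the pair of 1 scan day H3c14 gave -2.71 and its difference from the variants H2az1 and H2ax was -4.77. With an array left out these ranged from -4.21 to -3.15 and from -6.66 to -5.07. No member's difference changed sign under the 18 alternatives, among them quantile normalization, which moved the median of all probe sets tested to -0.088. H1f0, H3f3a and H3f3b had no value under any setting, since none has a probe set of its own. Chip lots were not shared between groups, so lot and group cannot be told apart. Wild-type 2 alone was read on another scanner type, so the scanner type as a block leaves it out. That setting gave -3.15 for H3c14 and -5.07 for its difference from the variants.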
